A study of Arabidopsis thaliana with 12 samples.

Results

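STZ, WRKY53, AT4G27280, AT5G39670 and AT5G66650 are 5 genes of Arabidopsis thaliana that were followed here in whole roots over 72 h of sulfur deficiency. A probe set was taken where the platform table pairs it with 1 of these genes alone, which gave 1 probe set for each gene, so 5 of the 13350 genes that the table names alone are described. The 5 were chosen by earlier results of these same arrays, among them their log2 differences from 0 h and the replicate signals of STZ. Their values are therefore given as a description, without a test. They had been grouped as touch and calcium stress regulators. The gene table used here names STZ (salt tolerance zinc finger, also ZAT10, locus AT1G27730) and WRKY53 (locus AT4G23810) but gives the other 3 by locus only, so no role is stated for those.

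Touching, wounding or moving a plant opens calcium channels within moments, and calmodulin-type proteins and calcium-dependent kinases pass that signal to transcription factors of the zinc finger, WRKY and ERF families. The transcripts of such factors typically rise and decay fast, and those of many of them respond to salt, cold, oxidants and microbes as well. STZ encodes a zinc finger protein with a repressor motif that is known from salt and oxidative stress. WRKY53 encodes a WRKY factor known for its part in the onset of leaf senescence and in defence.

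The seedlings were of ecotype Columbia and had spent 5 days on standard medium before transfer. The groups were roots at 3, 12, 24, 48 and 72 h after the move to sulfur-deficient medium, and roots moved to fresh standard medium, called 0 h, with 2 arrays each and 12 in all. No later time had roots on standard medium beside it, so the effects of sulfur, of time since transfer, of seedling age and of the hour of harvest cannot be told apart. The labels do not say that replicates came from separate cultures, so the spread between them may be technical. In whole roots, fewer cells that express a gene and less RNA per cell cannot be told apart either.

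Signals are MAS5 intensities, an Affymetrix summary of probe brightness on a linear scale, and values of different probe sets are not compared. The 40th percentile of an array, a signal of 45.3 to 50.4, serves below as the mark of a dim value. Within a group, the Pearson r between both arrays over the log2 values of the probe sets was 0.966 to 0.982. PYK10, a beta-glucosidase abundant in roots, had signals of 9927 to 14025, the root hair expansins EXPA7 and EXPA18 of 153.0 to 906.2 and of 215 to 646.3, and AGL42 of 85.9 to 165.8. Markers of green tissue were present too, with RCA at 208.1 to 460.2 and LHCB4.1 at 112.4 to 266.0. These were the 6 markers with a probe set that the platform table pairs with 1 gene alone, 4 of 17 for root and 2 of 13 for green tissue. Both groups gave signals above the 40th percentile on all 12 arrays.

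The arrays of replicate 2 at 0 h and at 3 h stood apart for 4 of the 5 genes. On those 2 arrays STZ, WRKY53, AT4G27280 and AT5G66650 were at least 2-fold above replicate 1 of the same time. Over all 14678 probe sets tested, 1.57% showed that gap at 0 h, 1.93% at 3 h and 56 (0.382%) at both. The opposite gap, with replicate 1 at least 2-fold above replicate 2 at both times, was seen in 27 (0.184%). The replicate signals of STZ were among the results used to choose the 5 genes, so these shares are no test of its gap. For the actin control, the 3' probe set over the 5' one, a gauge of RNA integrity, gave 3.27 on replicate 2 and 2.78 on replicate 1 at 0 h, and 3.44 on replicate 2 and 3.12 on replicate 1 at 3 h. The same quotient for GAPDH was 0.953 on replicate 2 and 0.895 on replicate 1 at 0 h, and 0.953 on replicate 2 and 0.834 on replicate 1 at 3 h. For ubiquitin it was 1.19 on replicate 2 and 0.840 on replicate 1 at 0 h, and 1.20 on replicate 2 and 1.04 on replicate 1 at 3 h. At 72 h, where none of the 4 genes had a 2-fold gap, actin gave 3.19 on replicate 2 and 2.38 on replicate 1. GAPDH then gave 1.03 on replicate 2 and 1.05 on replicate 1, and ubiquitin 1.07 and 0.971. Actin was also higher on replicate 2 at 24 h and 48 h. At 12 h each of these quotients was lower on replicate 2, with 2.71 on replicate 2 and 3.14 on replicate 1 for actin. The part of RNA quality in the gap at 0 h and 3 h was not tested. Results that rest on these arrays are given below with and without them.

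STZ had signals of 147.9 on replicate 1 and 748.1 on replicate 2 at 0 h. At 3 h it had 152.8 on replicate 1 and 1059 on replicate 2. From 12 h on its 8 arrays lay between 66.4 and 103.5, with a median of 81.4. The replicate 1 arrays of 0 h and 3 h were thus almost alike, the replicate 2 arrays were several times brighter, and each of the 8 later arrays was below all 4 early ones. STZ was above the 40th percentile on all 12 arrays.

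**Figure D1:**
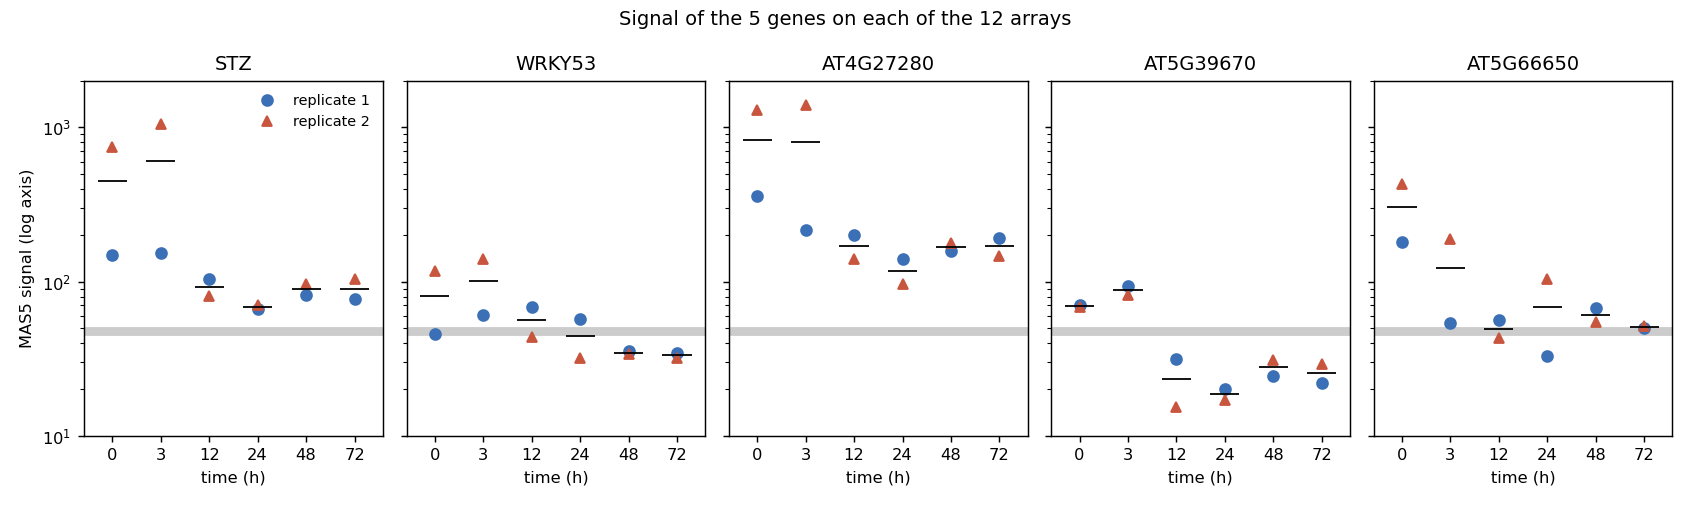
Signal (log axis) of each of the 5 genes on the 12 arrays, by time in h; circles are replicate 1, triangles replicate 2, black bars the means of 2 arrays, and the grey band the 40th percentile of the arrays. STZ, AT4G27280 and AT5G39670 had all 8 arrays of 12 to 72 h below the 4 arrays of 0 h and 3 h, and the gap between replicates at 0 h and 3 h is seen in each gene but AT5G39670.

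In the fit over all probe sets, STZ differed from 0 h by 0.27 ± 0.72 on the log2 scale at 3 h, by -1.87 at 12 h, by -2.28 at 24 h and by -1.90 at both 48 h and 72 h (each with an SE of 0.72). The later values depended on which 0 h array was used. At 24 h the difference was -1.11 without 0 h replicate 2 and -3.45 without 0 h replicate 1. Between arrays of the same number, it was -3.40 for replicate 2 and -1.16 for replicate 1. At 3 h even the sign depended on single arrays, which gave -0.90 when 0 h replicate 1 was left out, -1.12 when 3 h replicate 2 was, and 1.67 when 3 h replicate 1 was. Ordered by mean signal, STZ was highest at 3 h (606.0 ± 641.0, SD, n = 2), followed by 0 h (448.0 ± 424.4), 12 h (91.9), 72 h (90.0), 48 h (89.6) and 24 h (68.6). The ranges of 3 h and 0 h overlapped, as did those of 12, 72 and 48 h, while 0 h and 12 h, and 48 h and 24 h, did not.

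WRKY53 followed STZ on the early arrays but was dim. Its signals were 45.8 on replicate 1 and 116.6 on replicate 2 at 0 h, and 61.1 on replicate 1 and 140.3 on replicate 2 at 3 h. At 12 h they were 69.0 on replicate 1 and 43.9 on replicate 2, and at 24 h 57.1 on replicate 1 and 31.9 on replicate 2. Replicate 1 was thus the brighter array at 12 h and 24 h. At 48 h WRKY53 stood at 35.7 and 33.7 and at 72 h at 34.6 and 32.1, and 7 of its 12 arrays were at or below the 40th percentile.

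The log2 difference of WRKY53 from 0 h was 0.34 at 3 h, -0.41 at 12 h, -0.78 at 24 h, -1.08 at 48 h and -1.13 at 72 h, each with an SE of 0.47. Without 0 h replicate 2 the value at 12 h was 0.26 and at 72 h -0.46. On replicate 2 arrays alone WRKY53 was lower by 1.41 to 1.87 at 12 to 72 h, whereas on replicate 1 arrays alone it stood at 0.59, 0.32, -0.36 and -0.40. The means fell in the order 3, 0, 12, 24, 48 and 72 h, and the ranges of every pair of neighbours in that order overlapped.

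AT4G27280, like STZ, was far brighter on the replicate 2 arrays of 0 h and 3 h. Its signals were 361.1 on replicate 1 and 1295 on replicate 2 at 0 h, and 217.4 on replicate 1 and 1390 on replicate 2 at 3 h. Its 8 arrays of 12 to 72 h lay between 96.2 and 199.7, with a median of 152.5. All 8 were below the 4 arrays of 0 h and 3 h, as for STZ, although the gap between the highest later array (199.7) and the replicate 1 array of 3 h (217.4) was narrow.

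On the log2 scale AT4G27280 differed from 0 h by -0.32 at 3 h, -2.03 at 12 h, -2.56 at 24 h, -2.03 at 48 h and -2.03 at 72 h, each with an SE of 0.66. At 24 h it was lower by 3.75 between replicate 2 arrays and by 1.37 between replicate 1 arrays. Without 0 h replicate 2 it stood at -1.64, and without 0 h replicate 1 at -3.48. The value at 3 h turned to 0.61 without 0 h replicate 2 and to 1.02 without 3 h replicate 1. By mean signal the order was 0, 3, 12, 72, 48 and 24 h, and of the neighbours in it only 3 h and 12 h, and 48 h and 24 h, had ranges that did not overlap.

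AT5G39670 differed from the other 4 in that its early replicates were close together. It had 70.8 on replicate 1 and 67.9 on replicate 2 at 0 h, and 94.0 on replicate 1 and 81.4 on replicate 2 at 3 h. The 8 arrays from 12 h on lay between 15.4 and 31.3 (median 23.2), below all 4 early arrays, and all 8 were at or below the 40th percentile. The level from 12 h on is therefore a dim one, and the size of the difference is uncertain. Its direction is no independent result either. AT5G39670 was chosen with its differences from 0 h known and passed the filter on dim signals only through its arrays of 0 h and 3 h.

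Both arrays of AT5G39670 at 3 h were above both at 0 h, and the log2 difference was 0.33 ± 0.40 (SE). It was -1.66 at 12 h, -1.91 at 24 h, -1.33 at 48 h and -1.45 at 72 h with the same SE. At 12 h the difference was -2.15 between replicate 2 arrays and -1.18 between replicate 1 arrays. At 24 h the difference was -2.0 between replicate 2 arrays and -1.82 between replicate 1 arrays, and leaving out any 1 of the 12 arrays gave -2.03 to -1.79. Adding an offset of 16.3 to each signal before the logarithm, which damps dim values, gave -1.14, -1.30, -0.96 and -1.04 at 12, 24, 48 and 72 h. The means were ordered 3, 0, 48, 72, 12 and 24 h. The ranges of 3 h and 0 h, and of 0 h and 48 h, did not overlap, while the later neighbours in that order overlapped.

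AT5G66650 was the member already lower at 3 h in both replicates. Its signals were 181.7 on replicate 1 and 426.9 on replicate 2 at 0 h, and 53.7 on replicate 1 and 189.7 on replicate 2 at 3 h. The replicate 2 array of 3 h was thus slightly brighter than the replicate 1 array of 0 h, so the groups overlapped. From 12 h on the signals ran from 32.9 to 103.6, with a median of 53.3. Both ends of that range were arrays of 24 h, with 103.6 on replicate 2 and 32.9 on replicate 1, and 4 of the 8 later arrays were below all 4 early ones. AT5G66650 was at or below the 40th percentile on 2 of 12 arrays, 12 h replicate 2 and 24 h replicate 1.

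The log2 difference of AT5G66650 from 0 h was -1.47 at 3 h, -2.50 at 12 h, -2.25 at 24 h, -2.2 at 48 h and -2.46 at 72 h, each with an SE of 0.57. At 3 h it was -1.17 between replicate 2 arrays and -1.76 between replicate 1 arrays. At 12 to 72 h it ran from -3.31 to -2.04 between replicate 2 arrays and from -2.47 to -1.44 between replicate 1 arrays. Without 24 h replicate 1 the value at 24 h was -1.43, and without 24 h replicate 2 it was -3.08. By mean signal the order was 0, 3, 24, 48, 72 and 12 h, and only 48 h and 72 h were neighbours whose ranges did not overlap.

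**Figure D2:**
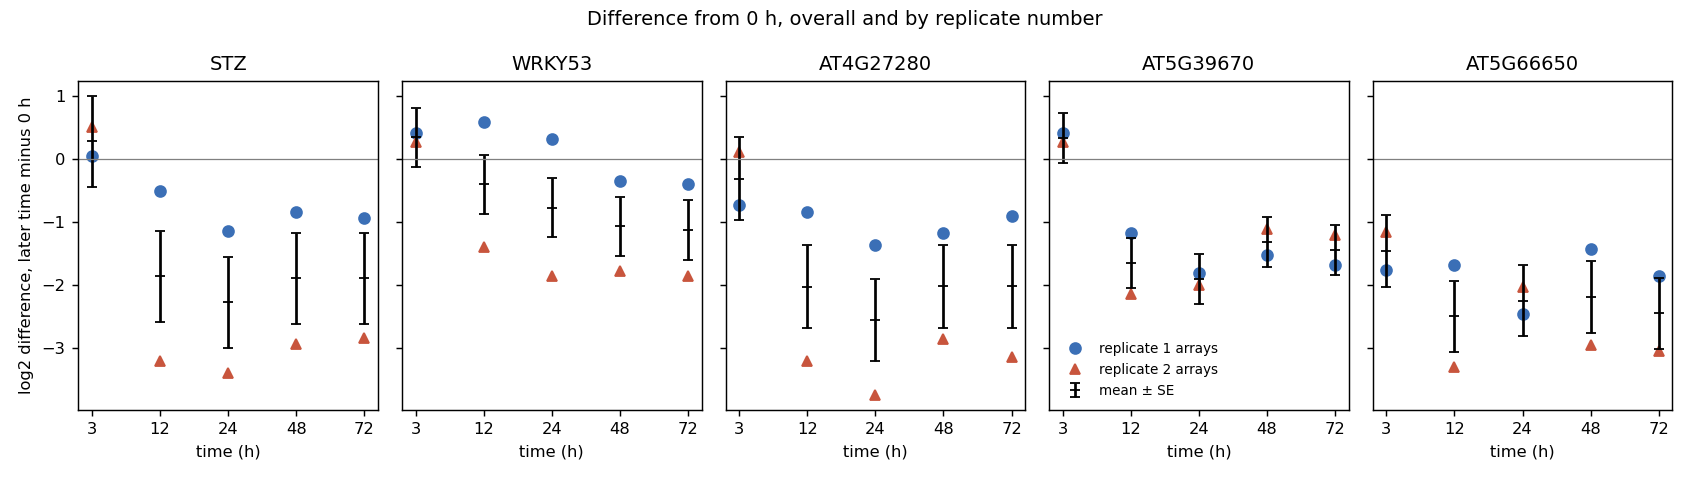
Log2 difference of each later time (horizontal axis, h) from 0 h for the 5 genes; bars show the mean difference ± SE of the fit over all probe sets, circles the difference between replicate 1 arrays and triangles that between replicate 2 arrays. In STZ, WRKY53 and AT4G27280 the replicate 2 values at 12 to 72 h lay below the replicate 1 values, each more than 1 SE from the mean. In AT5G66650 this held at 12, 48 and 72 h. In AT5G39670 the replicate 2 value was lower at 12 h (-2.15 and -1.18), close at 24 h (-2.0 and -1.82) and higher at 48 h and 72 h.

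Set side by side, 4 of the 5 genes had both arrays below both 0 h arrays at 12 h, where 25.7% of all probe sets tested did. At 24 h it was again 4 of 5 (24.0% of all), and at 48 h and 72 h 5 of 5 (21.4% and 25.3% of all). WRKY53 was the exception at 12 h and 24 h. At 3 h 0 of 5 were below both 0 h arrays (25.5% of all), and 1 of 5, AT5G39670, was above both (22.0% of all). The median log2 difference of the 5 genes was 0.27 at 3 h, -1.87 at 12 h, -2.25 at 24 h and -1.90 at both 48 h and 72 h, and over all probe sets tested the medians lay between -0.02 and 0.01. Since the genes were chosen for such values, and since all 5 comparisons share the 0 h arrays, nothing further is read from these counts. Cell type markers moved too. Of the 4 root markers, the root hair genes EXPA7 and EXPA18 were lower at 3 h (-1.77 and -1.08) and 24 h (-1.15 and -1.27) past an adjusted p of 0.05, and EXPA18 also at 48 h and 72 h, while PYK10 and AGL42 passed at no time. The summed signal of the 4 root markers was 13208 to 15402 at 0 h, 12756 to 14829 at 3 h, 12531 to 13289 at 12 h, 11651 to 12274 at 24 h, 10747 to 12360 at 48 h and 11338 to 12898 at 72 h. PYK10 made up most of each sum, with 11570 to 14025 at 0 h, so the sums say little on the other root markers. Of the 2 green tissue markers, both were lower at 12 h (-0.90 for RCA and -0.80 for LHCB4.1), and their sum was 596.3 to 612.5 at 0 h, 420.8 to 482.8 at 3 h, 331.2 to 333.4 at 12 h and 468.5 to 726.2 from 24 h on. No marker was at 0 on any array, and the part of the makeup of the sample in the values of the 5 genes was not tested.

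The distance between replicates was a second property that most of the 5 genes had in common. As log2 of replicate 2 over replicate 1, it was 2.34 at 0 h and 2.79 at 3 h for STZ, and 1.84 at 0 h and 2.68 at 3 h for AT4G27280. For AT5G66650 it was 1.23 at 0 h and 1.82 at 3 h, and for WRKY53 1.35 at 0 h and 1.20 at 3 h. AT5G39670 stood at -0.06 at 0 h and -0.21 at 3 h. The middle 95% of all probe sets tested lay between -0.81 and 0.87 at 0 h and between -0.84 and 0.90 at 3 h. The 4 genes thus lay outside that interval at both times and AT5G39670 inside it. For STZ the gap was known when the genes were chosen, so its place outside the interval is description only.

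At 48 h and 72 h all 5 genes lay within the middle 95% of the probe sets. At 24 h AT5G66650 was again far higher in replicate 2 (1.65) and WRKY53 lower (-0.84). At 12 h the 5 values were all negative, from -1.03 for AT5G39670 to -0.36 for STZ. The middle 95% of the probe sets began at -0.648 there, so AT5G39670 lay below it and WRKY53 (-0.650) at its edge. The residual SD of the fit, on the log2 scale, was 1.07 for STZ, above that of 99.6% of the probe sets tested, 0.97 for AT4G27280 (99.5%), 0.81 for AT5G66650 (99.1%), 0.61 for WRKY53 (98.0%) and 0.35 for AT5G39670 (86.9%). The value for STZ rests on replicate signals that were used in the choice of the genes.

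**Figure D3:**
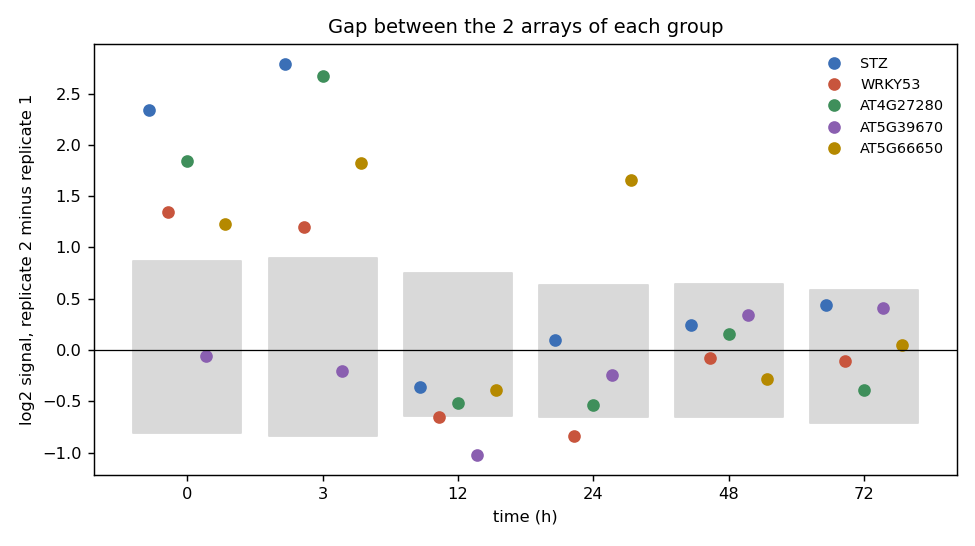
Log2 signal of replicate 2 minus replicate 1 (vertical axis) in each group by time in h, 1 point per gene; grey boxes span the middle 95% of the 14678 probe sets tested. STZ, AT4G27280, AT5G66650 and WRKY53 lay above the box at 0 h and 3 h, with values of 1.20 to 2.79, and AT5G39670 lay inside it.

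Across the 12 arrays the log2 signals of STZ and AT4G27280 had a Pearson r of 0.97 and a Spearman rho of 0.87. Without the 2 arrays farthest from the median of the mean profile, which were 0 h replicate 2 and 3 h replicate 2, r over the remaining 10 was 0.78. STZ and AT5G39670 had an r of 0.76 and a rho of 0.90, and r was 0.95 without those 2 arrays. By r, the relation to AT5G39670 was thus closer without the 2 arrays and that to AT4G27280 closer with them. By rho, STZ was nearer to AT5G39670 in both cases, with 0.88 for AT5G39670 and 0.77 for AT4G27280 over the 10 arrays. The arrays of a time share their conditions, so these values describe the 12 arrays and carry no test.

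WRKY53 was tied to the others mainly through those 2 arrays. Its r with STZ was 0.87 over 12 arrays and 0.35 over 10, and its r with AT4G27280 was 0.86 over 12 and 0.38 over 10. With AT5G66650 it was 0.59 over 12 arrays and -0.20 over 10. AT5G66650 had an r of 0.81 with STZ over 12 arrays and of 0.44 over 10, and of 0.82 with AT4G27280 over 12 and 0.43 over 10.

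**Figure D4:**
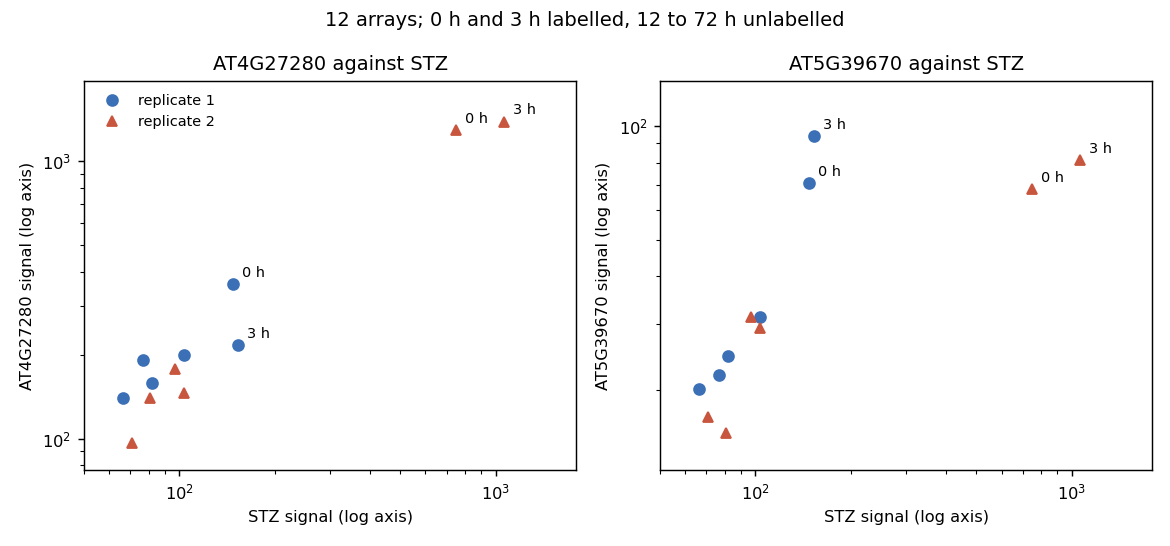
Signal of AT4G27280 (left) and AT5G39670 (right) against that of STZ on the 12 arrays, both axes logarithmic; circles are replicate 1 and triangles replicate 2, and the arrays of 0 h and 3 h are labelled. With AT4G27280 the 2 labelled triangles lie far above the other 10 arrays on both axes (r 0.97 over 12 arrays, 0.78 without them), while AT5G39670 was as high on the labelled circles as on the labelled triangles.

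The genes most like the mean profile of the 5 were sought among 7883 named probe sets, by Pearson r over the 12 arrays. The 10 highest were AT5G11070 (0.94), AT5G10695 (0.92), AT5G17350 (0.91), AT3G46600 (0.90), STR18 (0.90), AT1G26270 (0.89), AT1G49390 (0.89), AT5G65220 (0.89), AR781 (0.88) and AT3G57450 (0.88). STR18 encodes a sulfurtransferase. The mean profile was itself highest on 0 h replicate 2 (1.74) and 3 h replicate 2 (1.75, mean standardised log2). The ranking thus favoured genes brighter there, and the share of all probe sets brighter in replicate 2 at both times was not worked out. All 10 were brighter in replicate 2 at both 0 h and 3 h, but AT5G17350 alone by 2-fold or more at both. It had 77.2 on replicate 1 and 164.9 on replicate 2 at 0 h and 45.7 on replicate 1 and 266.1 on replicate 2 at 3 h. STR18 moved over a narrower range, with 686.6 and 1140 at 0 h, 898.3 and 1024 at 3 h, and 526.0 to 721.9 later. Without 0 h replicate 2 and 3 h replicate 2, none of these 10 was among the 10 highest, and r of the 10 ranged from 0.47 for AT3G57450 to 0.86 for AT1G26270.

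Taken gene by gene, the closest profiles differed. STZ was nearest to AT4G27280 (r 0.97), AT5G17350 (0.94) and AT3G57450 (0.93), and AT4G27280 to STZ (0.97), AT3G57450 (0.93) and AT5G17350 (0.92). WRKY53 was nearest to AT4G39570 (0.91), to NIH (0.90), which encodes a nuclear helicase, and to AT5G58930 (0.89). AT5G39670 was nearest to AT1G12080 (0.94), AT5G04070 (0.90) and AT2G18690 (0.90), with an r of 0.91, 0.88 and 0.91 without the 2 arrays. AT5G66650 was nearest to AT5G11070 (0.94), AT1G26270 (0.91) and AT5G65220 (0.91). Over 12 arrays STZ and AT4G27280 thus shared their closest profiles, and the other 3 genes had none of these among theirs. Without the 2 arrays, the r of AT5G17350 and AT3G57450 was 0.60 and 0.53 with STZ, and 0.55 and 0.68 with AT4G27280. For the 3 profiles nearest to WRKY53 it was then 0.85, 0.78 and 0.66, and for those nearest to AT5G66650 0.85, 0.80 and 0.73.

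Other genes of touch, calcium and WRKY signalling were taken from 10 lists, the 5 genes above left out. The platform table held no entry for 8730 probe sets and paired 503 with several genes. A listed gene may thus be on the array without being usable here. Of the genes in the lists, 27 had a probe set of their own in the table used here and 21 were tested. The other 6 (AT3G53600, WRKY42, AT1G76640, CML38, CML41 and CML37) did not pass the filter on dim signals, with highest signals of 16.0 to 63.5. At 3 h 1 of the 21 was higher and 3 were lower past an adjusted p of 0.05 (limma, Benjamini-Hochberg over all probe sets tested), where 5.42% of all were higher and 6.53% lower. At 12 h 2 were lower (4.33% of all), at 24 h 1 (2.36%), at 48 h 2 (1.55%) and at 72 h 2 (3.26%). None of the 21 was higher at these times, where 3.36%, 2.47%, 1.97% and 2.91% of all were. At an unadjusted p under 0.05, 7, 7, 4, 2 and 3 of the 21 passed at 3, 12, 24, 48 and 72 h. The share of all probe sets that did so was not worked out, so no excess is read from these counts. The median log2 difference of the 21 was -0.24, -0.29, -0.20, -0.06 and -0.09 at these times. In all, 7 of 21 passed at 1 or more times, where 17.2% of all probe sets did, and 4 of 21 passed the F test over the 5 differences, where 11.7% did.

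**Figure D5:**
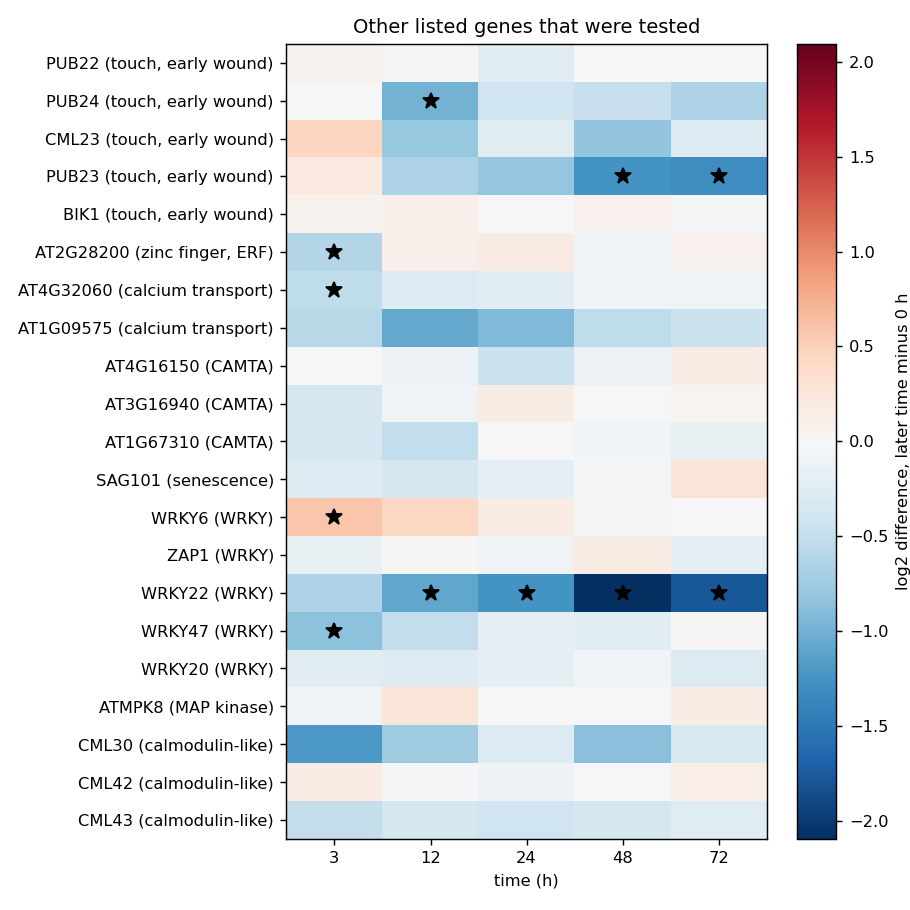
Log2 difference from 0 h (colour) of the 21 tested genes of the lists at each later time (horizontal axis, h), with the list in brackets; CML23 is also in the calmodulin-like list. Stars mark an adjusted p under 0.05, and WRKY22 is the only gene with stars at 4 times, from -1.08 at 12 h to -2.09 at 48 h.

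Of the WRKY family, 6 of 71 members besides WRKY53 had a probe set that the platform table pairs with them alone, and 5 were tested. WRKY22, which acts below a MAP kinase cascade in immune signalling, fell. Its signals were 91.3 and 131.3 at 0 h, 62.3 and 79.0 at 3 h, 60.7 and 44.2 at 12 h, 42.6 and 49.3 at 24 h, 27.6 and 23.8 at 48 h, and 31.0 and 32.7 at 72 h. Each later array was thus below both 0 h arrays, and 6 of the 12 were at or below the 40th percentile. The log2 difference was -2.09 at 48 h (adjusted p = 0.00114) and -1.78 at 72 h (adjusted p = 0.00246), with an SE of 0.30. Those calls held under every alternative that was run. At 12 h it was -1.08 (adjusted p = 0.0406) and at 24 h -1.26 (adjusted p = 0.0281). The call at 24 h was lost when 0 h replicate 2 was left out (-1.0), as it was on leaving out either array of 24 h (-1.15 for replicate 1 and -1.36 for replicate 2). That at 12 h was lost when 0 h replicate 2 was left out (-0.82), on leaving out either array of 12 h (-1.31 for replicate 1 and -0.85 for replicate 2), and on leaving out 48 h replicate 1 or any 1 array of 24 h or 72 h (-1.08). It was also lost with quantile normalization, without the filter on dim signals, with the replicate block and with the compared groups alone. The call at 24 h was lost without that filter.

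WRKY47 was lower at 3 h, with 119.4 and 99.8 at 3 h against 190.5 and 203.8 at 0 h, a log2 difference of -0.85 ± 0.18 (SE, adjusted p = 0.00522). That call held without any 1 array, but neither with the compared groups alone (-0.85) nor without 0 h replicate 2 and 3 h replicate 2 together (-0.67). WRKY6, a factor linked to senescence and phosphate status, was higher at 3 h, with 644.0 and 496.5 at 3 h against 416.3 and 340.5 at 0 h (0.59 ± 0.17, adjusted p = 0.0382). The call for WRKY6 was lost when 0 h replicate 2 (0.44) or 3 h replicate 1 (0.40) was left out, and without any 1 array of 12 h or 24 h (0.59). It was also lost without the trend of the prior variance, with the replicate block and with the compared groups alone. ZAP1 and WRKY20 passed at no time.

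Of the touch and early wound list, 5 of 41 entries had a probe set paired with them alone, and all 5 were tested. PUB22, PUB23 and PUB24 encode U-box ubiquitin ligases that damp immune signalling. PUB23 fell at the late times. It had 324.6 and 692.7 at 0 h, 503.4 and 597.8 at 3 h, 251.1 and 368.4 at 12 h, 243.7 and 299.8 at 24 h, 205.1 and 191.9 at 48 h, and 211.8 and 173.2 at 72 h. The difference was -1.26 at 48 h (adjusted p = 0.0246) and -1.31 at 72 h (adjusted p = 0.0146), with an SE of 0.28. Like the 4 genes above, PUB23 had a brighter replicate 2 at 0 h. Without that array it stood at -0.71 at 48 h and -0.76 at 72 h, and neither passed. The call at 48 h was also lost without 48 h replicate 1 (-1.30) or 48 h replicate 2 (-1.21), and that at 72 h without 72 h replicate 2 (-1.16). With the compared groups alone neither passed, and the call at 48 h was lost without the trend of the prior variance too. Without 0 h replicate 1, PUB23 passed at 12 h (-1.19) and 24 h (-1.36) too.

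PUB24 was lower at 12 h, with 45.7 and 48.9 at 12 h against 81.2 and 107.7 at 0 h (-0.98 ± 0.27, adjusted p = 0.0430). That call was lost when 0 h replicate 2 was left out (-0.78), on leaving out either array of 12 h (-0.94 for replicate 1 and -1.03 for replicate 2), and without any 1 array of 24 h or 72 h (-0.98). It was also lost with quantile normalization, without the filter on dim signals, with the replicate block and with the compared groups alone. PUB22 and the kinase gene BIK1 passed at no time, and PUB22 lay between 307.6 and 451.5 on all 12 arrays. CML23, which encodes a calmodulin-like calcium sensor, was the gene of the 21 that shared the replicate gap of STZ at 0 h and 3 h. It had 45.0 on replicate 1 and 103.0 on replicate 2 at 0 h, 52.1 on replicate 1 and 167.2 on replicate 2 at 3 h, and 34.7 to 61.0 later. Its difference from 0 h passed at no time and was 0.45 at 3 h.

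The calcium lists held little that could be tested. Of the calmodulin-like and EF-hand list, 8 of 24 entries had a probe set paired with them alone. Of these, 4 were tested (CML23, CML30, CML42 and CML43), none of which passed at any time. CML30 was the furthest from 0 h at 3 h, at -1.20 with an adjusted p of 0.0974, and it was at or below the 40th percentile on 10 of 12 arrays. Of the calcium transport list, AT4G32060 was lower at 3 h, with 768.9 and 776.4 at 3 h against 1087 and 1146 at 0 h (-0.53 ± 0.15, adjusted p = 0.0378). That call was lost without any 1 array of 0, 3, 48 or 72 h, with values between -0.57 and -0.49, and also without the trend of the prior variance and with the compared groups alone. AT1G09575 of the same list passed at no time, although it did at 12 h without the trend of the prior variance (-1.06). The 3 tested genes of the CAMTA list, calmodulin-binding transcription activators, passed at no time, and AT3G16940 passed at 3 h without 3 h replicate 1 (-0.63).

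AT2G28200, the 1 gene tested from the zinc finger and ERF list, was lower at 3 h, with 161.3 and 131.3 at 3 h against 205.6 and 243.0 at 0 h (-0.62 ± 0.17, adjusted p = 0.0266). The call was lost without 0 h replicate 2 (-0.50) or 3 h replicate 2 (-0.47), and with the compared groups alone. SAG101 of the senescence list and ATMPK8 of the MAP kinase list, each the 1 gene tested of its list, passed at no time. No gene of the calcium-dependent kinase list or of the list of close relatives of STZ had a probe set paired with it alone.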

How the data were processed

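Total RNA of whole roots was hybridised to 12 one-colour Affymetrix arrays, 2 per group, after biotin labelling by a one-cycle protocol, per the labels. The table deposited by the authors holds an intensity on a linear scale for each probe set on each array, which comes from MAS5 per the submitters' processing notes. Version, scaling target and detection calls are not given in the sources used here. Trimmed means (2%) lay at 250.02 to 250.03 on every array, so the intensities were used as deposited, as log2 without an offset.

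Of 22746 probe sets that are no controls, 14678 lay above the array's 40th percentile on at least 2 arrays. A model with 1 mean per group over the 12 arrays was fitted to them in limma 3.58.1 (R 4.3.3), and eBayes was run with a trend of the variance on signal. Adjusted p-values are Benjamini-Hochberg over the 14678, with a threshold of 0.05, and measure only the spread between these samples. The number of arrays limits the precision. The fit was checked on simulated data with independent noise and the same spread for every probe set. That check does not cover spreads that differ between probe sets, as they do here.

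The platform table paired 13513 probe sets with 1 gene, 503 with several and 8730 were unlisted, and 13436 matched the gene table of assembly TAIR10.1. The 5 genes and all lists were chosen with earlier results of these data known, so the lists are not independent evidence. The named genes were the 5, up to 4 genes of each list by the moderated F test, the 10 profiles most like the mean of the 5 and the 3 most like each, and BIK1, WRKY20 and the 6 listed genes that did not pass the filter were named besides to complete their lists. Alternatives were an offset, quantile normalization, 2 other filters, no trend, a replicate block, only the groups compared, and each array left out in turn. Sequences and coordinates were not used here.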

Additional observations from a re-analysis of the deposited data

How the results depend on the processing

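The number of listed genes that passed was 4 at 3 h, 2 at 12 h, 1 at 24 h, 2 at 48 h and 2 at 72 h. Leaving out 1 array at a time gave 1 to 3 at 3 h, 0 to 3 at 12 h, 0 to 2 at 24 h, and 1 to 2 at 48 h and at 72 h. At 3 h the count was 2 without the trend of the prior variance and 0 with the compared groups alone (7 at an unadjusted p under 0.05). At 12 h it was 0 with quantile normalization (7 unadjusted), 0 without a filter (7 unadjusted), 0 with the replicate block (7 unadjusted) and 0 with the compared groups alone (6 unadjusted), all in limma. At 24 h it was 0 without a filter (5 unadjusted). At 48 h it was 1 without the trend and 1 with the compared groups alone, and at 72 h 1 with the compared groups alone. Leaving out 0 h replicate 2 and 3 h replicate 2 together, an alternative chosen after seeing the data, gave 0 at 3 h (6 unadjusted), 0 at 12 h (4 unadjusted), 0 at 24 h (1 unadjusted), 1 at 48 h and 1 at 72 h. No share of all probe sets under the same alternative stands beside these counts, adjusted or unadjusted. Neither an excess nor a loss particular to the listed genes is therefore read from them. Of the 10 most similar profiles, 1 was shared when ranked by Spearman rho and 0 without both arrays. The differences between arrays of one replicate number alone were likewise added after seeing the data. No cause was tested. The signs of STZ, WRKY53 and AT4G27280 at 3 h and of WRKY53 at 12 h and 24 h depended on single arrays or on the replicate number used. Leaving out 0 h replicate 1 put WRKY53 at 3 h at -0.33, and leaving out 3 h replicate 2 put it at -0.26. At 12 h to 72 h the 4 genes other than WRKY53 were lower under every alternative in which they were kept. The stricter filter on dim signals dropped AT5G39670 and WRKY53. AT5G39670 passed the main filter only through its arrays of 0 h and 3 h, where it was brightest. The labels do not say whether equal replicate numbers pair the samples. Over all probe sets tested, the correlations of replicate differences between groups ran from -0.23 to 0.20, highest between 0 h and 3 h. Such correlations cannot show that the samples were unpaired. The replicate block ended the calls of WRKY6 at 3 h, and of WRKY22 and PUB24 at 12 h, and left 3 calls at 3 h, 1 at 24 h, and 2 at 48 h and at 72 h. Dim signals limit AT5G39670 after 3 h, WRKY53 at 0 h and from 12 h on, and AT5G66650 at 12 h and 24 h, since no background level was known. The dim 0 h array of WRKY53, replicate 1, enters each of its differences from 0 h.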

Other observations

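Besides STZ, WRKY53, AT4G27280 and AT5G66650, 52 probe sets were at least 2-fold brighter in replicate 2 at both 0 h and 3 h, 25 of them with a single gene. The median of the 8 arrays of 12 to 72 h was below 0 h replicate 1 in 23 of the 52, between the 0 h arrays in 27 and above 0 h replicate 2 in 2. AT4G29780, chosen after its values were seen, had the gap at 2.83 on the log2 scale at 0 h and 2.05 at 3 h, with 207.4 on replicate 2 and 29.1 on replicate 1 at 0 h and a later median of 54.0. ORA47, an ERF factor of jasmonate signalling that was also chosen after its values were seen, had a gap of 1.18 at 0 h and 1.87 at 3 h, with 57.5 on replicate 2 and 25.4 on replicate 1 at 0 h and a later median of 21.6. ORA47 was at or below the 40th percentile on 10 of 12 arrays and AT4G29780 on 3, so the size of these gaps is uncertain.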
